A study of Oryza sativa Japonica Group with 6 samples.

Results

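A stretch of consecutive loci on rice chromosome 9 had higher transcript levels in plants overexpressing a lipid transfer protein than in their control. It reaches from LOC_Os09g24720 to LOC_Os09g27040 and holds 223 annotated loci. Its members are the 105 loci that averaged 0.5 FPKM or more across all 6 samples, out of 22841 loci in the genome that passed the same minimum. FPKM is the number of sequenced fragments scaled to exon length and to the mapped fragments of the library. Of the other loci in the stretch, 111 lay under the minimum and 7 were left out by name. The stretch was chosen by the difference between the overexpression plants and the control in these same samples, so the values of its members in that comparison are given as a description. No p-value of a member is given, and counts of members past a threshold only describe them.

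The overexpression plants (OEZ) carried the IL112 allele of OsLTPL159 under the CaMV 35S promoter, a viral promoter active in most plant tissues, in the japonica variety Zhonghua17. The control plants (ZH17) were nontransformed Zhonghua17, so that transformation itself and the transgene cannot be told apart. RNA was sequenced from early seedlings with buds of about 5 mm, and both genotypes had been kept at 2 °C for 3 h before sampling. There were 3 replicates of each genotype, each a pool of 50 plants. The sources used here name OEZ as 1 overexpression line and do not say how many transformation events it holds. In pooled seedlings, fewer cells of a type and less RNA per cell cannot be told apart.

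In plant genomes most genes have promoters of their own, and neighbours usually belong to unrelated families. Genes of similar sequence can also lie side by side after tandem duplication, and such pairs often share functions. RNA was measured here and DNA was not, so whether the genomes of OEZ and ZH17 differ in this stretch was not tested. Order along the chromosome was read from the identifiers, which do not give distances.

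OsLTPL159 itself (LOC_Os10g36160, chromosome 10) had 2506, 2540 and 2502 FPKM in OEZ, against 141, 138 and 131 FPKM in ZH17. The log2 fold change was 4.20 (SE 0.05, adjusted p = 1.4e-07 in limma), and the exact two-sided permutation p was 0.1, the smallest that 3 against 3 pools allow. The FPKM of a library summed to 859282 to 902931 in OEZ and 856329 to 864333 in ZH17. FPKM hold no read counts, so the depth of the libraries is unknown. Genes of the germinating grain set OEZ replicate 2 apart: the summed level of 6 such genes was 3.31, 243 and 3.17 FPKM in OEZ replicates 1, 2 and 3, against 57.8, 175 and 130.0 FPKM in ZH17, and the alpha-amylase gene RAmy3E was listed at 0 in OEZ replicates 1 and 3. The summed level of 3 genes of green shoots was 2642, 3033 and 3138 FPKM in OEZ, against 4642, 4753 and 4499 FPKM in ZH17, and 2 of the 3 were called lower. The part of these differences in the levels of the members was not tested. Without OEZ replicate 2 the median log2 fold change of the members was 0.93 and 59 of them were called, against 0.933% of all tested loci. The summed grain level of that pool lay above all ZH17 pools, and those of OEZ replicates 1 and 3 lay below them. Leaving it out thus keeps a difference in the grain genes and in the green shoot genes, and does not test their part.

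All 105 members had a higher fitted level in OEZ than in ZH17, and most lay near a common ratio. The log2 fold change, taken on log2(FPKM + 0.1), had a median of 0.93 with quartiles of 0.76 and 1.10, a fold change of 1.91. Over all 22841 loci the median was 0.02, and the quartiles lay about as far apart as in the members (0.32 against 0.35). Of the members, 53 lay from 1.5-fold to under 2-fold, 41 were at least 2-fold higher and 11 were under 1.5-fold. A locus was called where it changed 1.5-fold or more with an adjusted p under 0.05 in limma. By that criterion 77 members were called higher and 0 lower, where 1.56% of all tested loci were called higher. In 97 members every OEZ sample lay above every ZH17 sample, which held for 16.0% of all tested loci. The members were chosen on this contrast, so nothing is read from either count. Without the minimum of 0.5 FPKM for tested loci, 34 of the 105 members were called, against 0.195% of all loci.

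Summed over the members, OEZ replicates 1, 2 and 3 had 4811, 4876 and 4832 FPKM, against 2596, 2591 and 2515 FPKM in ZH17. These sums were 4840 ± 33.0 FPKM in OEZ and 2568 ± 45.2 FPKM in ZH17 (SD, n = 3 each), a ratio of 1.88. The sums did not overlap, and the ratio did not rest on the most abundant member, since without LOC_Os09g26420 it was 1.91. Their share of all FPKM in a library was 0.533% to 0.567% in OEZ and 0.291% to 0.303% in ZH17. Set against the ZH17 means, the median log2 difference of the members was 0.93, 0.97 and 0.92 in the OEZ replicates. It was 0.01, 0.01 and 0.02 in the ZH17 replicates, whose own mean was the reference. The members were chosen on these same pools, so the values by pool only describe them. In these 3 OEZ pools, 101, 102 and 99 members lay above their highest ZH17 value. The share of all tested loci by this measure was not computed, so nothing is read from these counts.

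**Figure D1:**
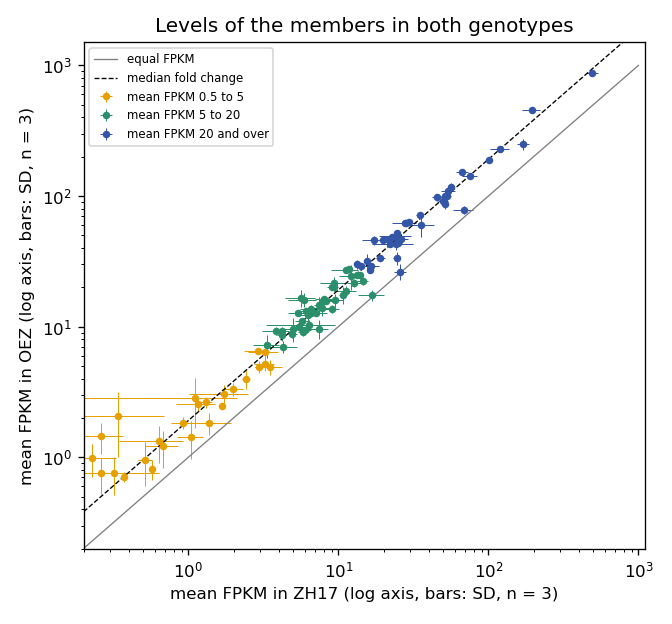
Mean FPKM of each of the 105 members in OEZ (vertical, log axis) and in ZH17 (horizontal, log axis), with bars for the SD of 3 pools, coloured by mean FPKM over the 6 samples. The points run along the dashed line of the median fold change of 1.91, above the grey line of equal FPKM, and those of low FPKM scatter most.

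Along the chromosome, the fitted level was higher in OEZ at the first member and at the last. The stretch was chosen on this contrast, so a change at its ends is built in and only described here. LOC_Os09g24720, annotated as an expressed protein, had 93.7, 94.6 and 87.8 FPKM in OEZ, against 47.8, 54.3 and 48.0 FPKM in ZH17, a log2 fold change of 0.88 (SE 0.07). The last tested locus before it, LOC_Os09g24710, had 27.6, 29.0 and 25.5 FPKM in OEZ, against 27.3, 24.4 and 24.1 FPKM in ZH17, a log2 fold change of 0.12 (SE 0.08). Its groups overlapped, while those of LOC_Os09g24720 lay far apart. The last member, LOC_Os09g27040, is described as GEX1, a gene named in Arabidopsis for its expression in gametes. It had a low level of 1.06, 0.92 and 1.65 FPKM in OEZ, against 0.81, 0.49 and 0.74 FPKM in ZH17, a log2 fold change of 0.73 (SE 0.31) that was not called. The next tested locus, LOC_Os09g27050, had 16.0, 15.9 and 16.2 FPKM in OEZ, against 20.7, 20.3 and 22.7 FPKM in ZH17, a log2 fold change of -0.40 (SE 0.07). The sign differed between these neighbours, which lie on either side of the chosen end. Among the 10 tested loci before the stretch the median log2 fold change was 0.00 (range -0.33 to 0.27), and among the 10 after it -0.05 (range -0.40 to 0.52), with 0 called higher on either side. Over the 1152 other tested loci of chromosome 9 the median was 0.02, with 15 called higher and 15 lower.

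Within the stretch, the size of the difference had no visible slope. Spearman's rho of the log2 fold change with the order of the members was 0.04 (n = 105), and that of a member with the next member was -0.0017 (n = 104 pairs of neighbours). All points come from the same 6 libraries. Cut into 4 blocks of consecutive members, the median log2 fold change was 0.95 in the first block (LOC_Os09g24720 to LOC_Os09g25390, 27 members), 0.88 in the second (LOC_Os09g25410 to LOC_Os09g25934, 26 members), 0.94 in the third (LOC_Os09g25950 to LOC_Os09g26554, 26 members) and 1.06 in the fourth (LOC_Os09g26560 to LOC_Os09g27040, 26 members). Of these blocks, 24, 18, 16 and 19 members were called, in that order, against 1.56% of all tested loci. The first 41 members, from LOC_Os09g24720 to LOC_Os09g25640, did not overlap between the genotypes. Every OEZ sample lay above every ZH17 sample in 16.0% of all tested loci. The longest stretch of members called one after another held 21, from LOC_Os09g24900 to LOC_Os09g25380. The members were chosen on this contrast, so nothing is read from these counts.

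**Figure D2:**
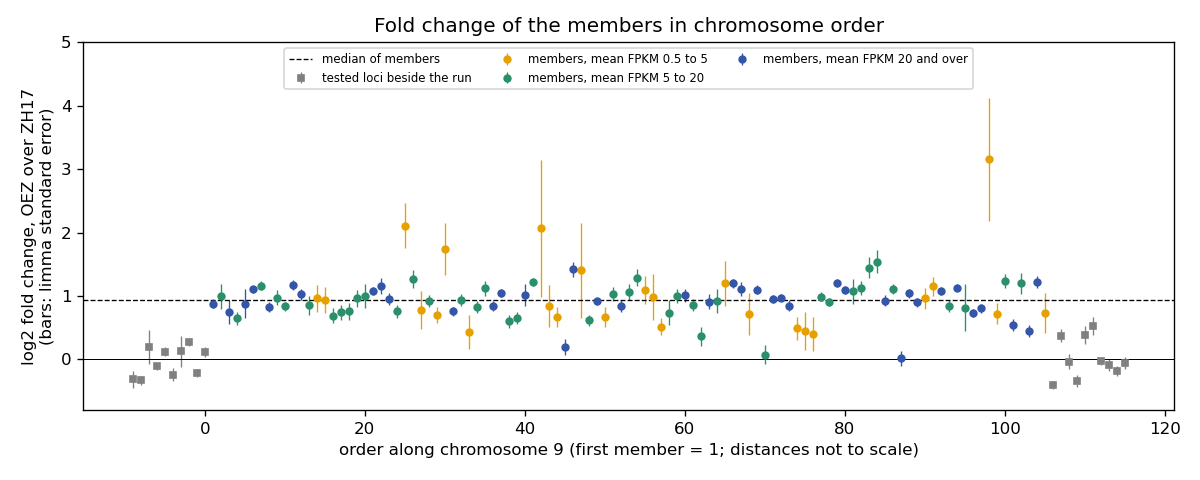
Log2 fold change of OEZ over ZH17 (vertical) for the members in chromosome order (horizontal, first member = 1) and for the 10 tested loci on each side (grey squares), with bars for the limma standard error and colours for the mean FPKM class. The members scatter around the dashed median of 0.93 from the first to the last, and the loci on either side scatter around 0.

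The level of a gene made little difference to its median fold change and much to its precision. The 39 members with a mean of 20 FPKM or more had a median log2 fold change of 0.95, the 41 members from 5 to under 20 FPKM one of 0.93, and the 25 members from 0.5 to under 5 FPKM one of 0.85. Spearman's rho of the log2 fold change with the mean FPKM was 0.06 (n = 105). With a pseudocount of 1 in place of 0.1, which pulls down the fold changes of low genes, it was 0.45. Of these 3 classes, from the highest to the lowest level, 33, 37 and 7 members were called, against 1.56% of all tested loci. The members were chosen on this contrast, so nothing is read from these counts. The SD of the log2 fold changes within a class was 0.27, 0.28 and 0.64, against a root mean square standard error of 0.10, 0.14 and 0.41. The spread of the members thus exceeded their standard errors in each class. In all, 36 members lay more than 2 standard errors from the median, 21 above it and 15 below it, and 69 lay within. Of the 39 members at 20 FPKM or more, 11 were above and 6 below by that measure.

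The stretch held genes of many kinds, and all 10 groups of members formed from the words of the study's gene descriptions had a median log2 fold change between 0.74 and 1.42. Descriptions came from the study's list of differentially expressed genes, which was drawn from these libraries with a minimum fold change of 1.5. So the 86 members with a description had a median of 0.96 and the 19 without one had a median of 0.52, a gap that the making of the list builds in. Among the 86, every OEZ sample lay above every ZH17 sample and 76 were called, and the smallest log2 fold change was 0.60. Among the 19, 11 did not overlap and 1 was called. Every OEZ sample lay above every ZH17 sample in 16.0% of all tested loci. The fold minimum of the list also largely sets the numbers called and not overlapping among described genes. Over all tested loci 1.56% were called higher, and nothing is read from these numbers. The same minimum keeps the medians of the described groups well above 0, so nothing is read from their range.

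**Figure D3:**
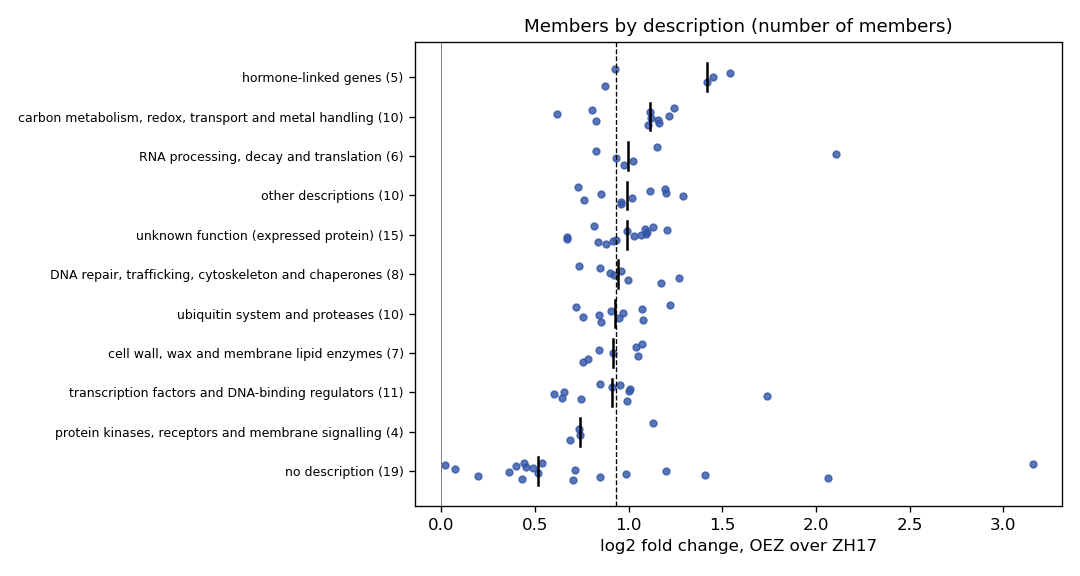
Log2 fold change of OEZ over ZH17 (horizontal) of every member, as 1 point, by the group of its description (vertical), with the number of members in brackets, a short bar at each group's median and a dashed line at the median of all members, 0.93. Hormone-linked genes have the highest median, 1.42, and members without a description the lowest, 0.52.

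Hormone-linked genes had the highest median of the groups, 1.42 over 5 members, of which 4 were called. SAUR genes are a family that auxin switches on, and in Arabidopsis several of them promote cell expansion. OsSAUR38 (LOC_Os09g26610) had 15.5, 14.7 and 19.4 FPKM in OEZ, against 6.08, 6.68 and 4.25 FPKM in ZH17. Its log2 fold change of 1.54 (SE 0.18) was the largest among members with a mean of 5 FPKM or more. The neighbouring OsSAUR37 (LOC_Os09g26590) had 18.2, 14.4 and 15.6 FPKM in OEZ, against 5.33, 5.03 and 7.31 FPKM in ZH17, a log2 fold change of 1.45 (SE 0.16). Each OEZ value of both SAUR genes was higher than any ZH17 value by a wide gap. LOC_Os09g25770, described as auxin-induced protein 5NG4, had 49.8, 43.7 and 43.5 FPKM in OEZ, against 14.2, 17.5 and 19.8 FPKM in ZH17, a log2 fold change of 1.42 (SE 0.13). The other members of the group were nearer to the median of all members. LOC_Os09g26620, described as an auxin-repressed protein, had 143, 143 and 142 FPKM in OEZ, against 79.2, 65.7 and 81.1 FPKM in ZH17, a log2 fold change of 0.93 (SE 0.08). GASR10 (LOC_Os09g24840), of the gibberellin-regulated GASA family, had 44.1, 38.0 and 46.2 FPKM in OEZ, against 27.7, 28.9 and 15.6 FPKM in ZH17. Its log2 fold change of 0.87 (SE 0.23) was not called, and ZH17 replicate 3 was its lowest sample. Genes annotated as induced and as repressed by auxin lay on the same side, as did every member of the stretch. The stretch was chosen on this contrast, so nothing is read from that.

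Of 11 transcription factors and DNA-binding regulators, 9 were called, with a median log2 fold change of 0.91. An AP2 domain gene, LOC_Os09g26420, of a plant family of transcription factors that includes many regulators of stress and development, was the most abundant member. It had 834, 918 and 891 FPKM in OEZ, against 522, 508 and 440.0 FPKM in ZH17, a log2 fold change of 0.85 (SE 0.08). The other AP2 domain gene, LOC_Os09g25600, had 9.74, 9.41 and 8.37 FPKM in OEZ, against 5.59, 6.30 and 5.49 FPKM in ZH17, a log2 fold change of 0.65 (SE 0.10). Both kept apart in every sample at levels that differ widely. The MYB genes LOC_Os09g24800 and LOC_Os09g26170 had log2 fold changes of 0.99 (SE 0.19) and 1.0 (SE 0.11), although they stand near the start and in the middle of the stretch. The neighbouring zinc finger homeodomain genes LOC_Os09g24810 and LOC_Os09g24820 had 0.75 (SE 0.19, not called) and 0.65 (SE 0.10). The C2H2 zinc finger gene ZOS9-12 (LOC_Os09g26210) had 42.9, 49.9 and 47.7 FPKM in OEZ, against 24.6, 21.3 and 29.2 FPKM in ZH17, a log2 fold change of 0.91 (SE 0.12). ZOS9-07 (LOC_Os09g25430) was near the minimum, with 1.04, 0.68 and 1.23 FPKM in OEZ, against 0.12, 0.27 and 0.30 FPKM in ZH17. Its log2 fold change of 1.74 (SE 0.41) was not called. LOC_Os09g26180, a subunit of TFIID, the general factor that helps RNA polymerase II start, had 35.9, 31.2 and 27.8 FPKM in OEZ, against 15.8, 15.2 and 15.8 FPKM in ZH17.

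Protein turnover was represented by 10 members with a median log2 fold change of 0.93, of which 9 were called. LOC_Os09g27030 is described as the precursor of oryzain gamma, a papain-like cysteine protease known from germinating rice grains. It had 469.9, 446 and 442 FPKM in OEZ, against 169.8, 192 and 224 FPKM in ZH17, a log2 fold change of 1.22 (SE 0.10). OEZ replicate 2, where grain genes were high, lay between the other OEZ replicates for this gene. The part of grain tissue in its level was not tested. LOC_Os09g25320, of the ubiquitin family, had 225, 238 and 228 FPKM in OEZ, against 103, 119.8 and 137 FPKM in ZH17, a log2 fold change of 0.95 (SE 0.10). LOC_Os09g26400, with a C3HC4 (RING) zinc finger, a domain found in many ubiquitin ligases, had 101, 100.3 and 100.2 FPKM in OEZ, against 49.1, 54.3 and 50.6 FPKM in ZH17, a log2 fold change of 0.97 (SE 0.06). The spread of its OEZ pools was under 1 FPKM. LOC_Os09g25310 is described as a non-ATPase regulatory subunit of the 26S proteasome, the complex that degrades ubiquitin-tagged proteins. It had 50.2, 52.6 and 53.5 FPKM in OEZ, against 24.6, 25.8 and 23.6 FPKM in ZH17. The subtilisin-like gene OsSub57 (LOC_Os09g26920), at a mean of 3.34 FPKM in OEZ and 2.0 FPKM in ZH17, was the member of this group that was not called.

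Of 7 enzymes of the cell wall, wax and membrane lipids, 6 were called, with a median log2 fold change of 0.92 and a narrow range of 0.76 to 1.07. LOC_Os09g25850 is described as WAX2, which in Arabidopsis is needed for cuticular wax. It had 193, 182 and 195 FPKM in OEZ, against 104, 100.2 and 98.0 FPKM in ZH17, a log2 fold change of 0.92 (SE 0.05). LOC_Os09g26800, a polygalacturonase, the enzyme class that cleaves pectin, had 126, 111 and 116 FPKM in OEZ, against 56.4, 54.0 and 57.6 FPKM in ZH17, a log2 fold change of 1.07 (SE 0.06). LOC_Os09g25580, a monogalactosyldiacylglycerol synthase, which makes the main lipid of chloroplast membranes, had 73.8, 69.2 and 73.5 FPKM in OEZ, against 36.4, 35.5 and 32.5 FPKM in ZH17, a log2 fold change of 1.05 (SE 0.06). In these 3 genes the gap between the genotypes was several times the spread of the pools. CSLC2 (LOC_Os09g25900), of the family that makes the xyloglucan backbone, averaged 29.2 FPKM in OEZ and 16.4 FPKM in ZH17. LOC_Os09g25150, a cinnamoyl-CoA reductase, an enzyme of lignin precursor synthesis, averaged 18.9 FPKM in OEZ and 11.2 FPKM in ZH17. LOC_Os09g26700, a choline/ethanolamine kinase of phospholipid synthesis, averaged 29.2 FPKM in OEZ and 14.2 FPKM in ZH17. The phospholipase D gene LOC_Os09g25390, whose enzyme class releases phosphatidic acid, was not called at 0.71 FPKM in OEZ and 0.37 FPKM in ZH17.

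The 10 genes of carbon metabolism, redox, transport and metal handling, of which 10 were called, had a median log2 fold change of 1.12. LOC_Os09g25314, a copper chaperone of cytochrome c oxidase, had 60.8, 63.4 and 60.7 FPKM in OEZ, against 32.7, 28.7 and 22.5 FPKM in ZH17, a log2 fold change of 1.16 (SE 0.13). LOC_Os09g24910, a phosphofructokinase of glycolysis, had 20.8, 19.7 and 20.3 FPKM in OEZ, against 9.42, 8.35 and 9.26 FPKM in ZH17. LOC_Os09g26900, a copper transporter of the CTR family, had 44.3, 44.1 and 42.7 FPKM in OEZ, against 23.0, 25.8 and 26.2 FPKM in ZH17, a log2 fold change of 0.81 (SE 0.07). The copper chaperone was member 22 in the order and the copper transporter member 97, and both were higher in every OEZ pool. LOC_Os09g24900, a methyltransferase, had 64.1, 61.9 and 64.1 FPKM in OEZ, against 29.1, 30.4 and 28.7 FPKM in ZH17, a log2 fold change of 1.10 (SE 0.05). The cytochrome P450 gene LOC_Os09g26940 had a log2 fold change of 1.24 (SE 0.11), the largest of this group, and the nodulin gene LOC_Os09g25810 had 0.62 (SE 0.08), its smallest.

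The 6 genes of RNA processing, decay and translation, of which 6 were called, had a median log2 fold change of 1.0. LOC_Os09g24990, of the CAF1 family of ribonucleases that shorten the poly(A) tail of mRNAs, had 111, 105 and 113 FPKM in OEZ, against 57.0, 57.4 and 47.4 FPKM in ZH17, a log2 fold change of 1.02 (SE 0.08). Pentatricopeptide repeat proteins act on RNAs of mitochondria and chloroplasts, and their genes LOC_Os09g25050 and LOC_Os09g25550 had log2 fold changes of 0.93 (SE 0.21) and 0.83 (SE 0.10). LOC_Os09g25370, a deoxyhypusine synthase, which modifies the translation factor eIF5A, had 1.16, 1.89 and 1.29 FPKM in OEZ, against 0.15, 0.37 and 0.27 FPKM in ZH17. Its log2 fold change of 2.11 (SE 0.36) was the largest of the called members, at a low level.

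The 8 genes of DNA repair, trafficking, cytoskeleton and chaperones, of which 8 were called, had a median log2 fold change of 0.94. LOC_Os09g26730, a chaperonin that helps proteins fold, had 90.8, 106 and 102 FPKM in OEZ, against 55.7, 54.0 and 49.8 FPKM in ZH17. LOC_Os09g24980, a v-SNARE of vesicle fusion, had 28.5, 28.6 and 32.9 FPKM in OEZ, against 13.2, 13.2 and 13.2 FPKM in ZH17, a log2 fold change of 1.17 (SE 0.07). LOC_Os09g25380, related to kinesins, the motors that walk along microtubules, had 9.96, 9.28 and 8.64 FPKM in OEZ, against 3.68, 3.20 and 4.60 FPKM in ZH17, a log2 fold change of 1.27 (SE 0.14). The kinesin gene and the v-SNARE gene had the largest values of the group. LOC_Os09g26870, with a BRCA1 C-terminal domain, as found in DNA repair proteins, had 27.9, 26.9 and 26.2 FPKM in OEZ, against 15.4, 16.4 and 16.7 FPKM in ZH17, and its log2 fold change of 0.73 (SE 0.06) was the smallest.

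Protein kinases, receptors and membrane signalling had the lowest median among described groups, 0.74 over 4 members, of which 3 were called. The neighbouring kinases LOC_Os09g25090 and LOC_Os09g25100, of the CAMK class with likeness to SNF1, a kinase of energy sensing in yeast, had log2 fold changes of 0.69 (SE 0.12) and 0.74 (SE 0.12). LOC_Os09g26830, described as a membrane protein of the lung 7 transmembrane domain kind, had 62.2, 61.3 and 62.0 FPKM in OEZ, against 28.6, 29.2 and 26.8 FPKM in ZH17, a log2 fold change of 1.13 (SE 0.06). The glutamate receptor gene LOC_Os09g26160, of a family of cation channels in plants, had 6.28, 7.75 and 7.05 FPKM in OEZ, against 4.89, 4.86 and 3.02 FPKM in ZH17, and was not called.

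Of 10 members with other descriptions, 9 were called (median log2 fold change 0.99), and of 15 described only as expressed proteins, 12 were called (median 0.99). LOC_Os09g25950, a regulator protein, had 27.6, 28.2 and 26.2 FPKM in OEZ, against 10.2, 9.68 and 13.9 FPKM in ZH17, a log2 fold change of 1.29 (SE 0.14). The neighbouring hypro1 genes LOC_Os09g26300 and LOC_Os09g26310 averaged 153 and 49.0 FPKM in OEZ, against 66.7 and 22.7 FPKM in ZH17, with log2 fold changes of 1.20 (SE 0.07) and 1.11 (SE 0.11). LOC_Os09g25460, of the transferase family, had a log2 fold change of 0.76 (SE 0.07), and LOC_Os09g25620, a transcript with a conserved upstream reading frame, 1.02 (SE 0.17). Among the expressed proteins, LOC_Os09g26350 averaged 97.5 FPKM in OEZ and 45.5 FPKM in ZH17, and LOC_Os09g26560 averaged 46.2 FPKM in OEZ and 21.6 FPKM in ZH17.

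In all 8 pairs of members with the same or a like description, the fold changes differed by under 2 standard errors of the difference. Every gene of these pairs has a description, so the fold minimum of the study's list set a floor for its value. Pairs of unlike members were not compared, so nothing is read from this count. The difference of log2 fold changes, first minus second, was 0.10 (SE 0.22) for the zinc finger homeodomain genes, -0.05 (SE 0.17) for the kinases, 0.09 (SE 0.13) for the hypro1 genes and -0.09 (SE 0.24) for OsSAUR37 minus OsSAUR38. These 4 pairs are neighbours and may share reads where their sequences are alike, so their values are not independent. For genes further apart it was -0.01 (SE 0.22) for the MYB genes, -0.20 (SE 0.13) for LOC_Os09g25600 minus LOC_Os09g26420 and 0.10 (SE 0.23) for the pentatricopeptide repeat genes. The widest gap, 0.83 (SE 0.43), was that of ZOS9-07 minus ZOS9-12, with ZOS9-07 at a low level.

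Some well expressed members had small fold changes between neighbours with larger ones. LOC_Os09g26670 had 30.6, 24.0 and 24.4 FPKM in OEZ, against 27.4, 23.0 and 27.2 FPKM in ZH17, a log2 fold change of 0.02 (SE 0.12). The members on either side, LOC_Os09g26650 and LOC_Os09g26700, had 1.11 (SE 0.08) and 1.04 (SE 0.07). LOC_Os09g26370 had 17.0, 19.4 and 16.0 FPKM in OEZ, against 16.6, 20.1 and 13.6 FPKM in ZH17, a log2 fold change of 0.07 (SE 0.15), between LOC_Os09g26350 at 1.10 and LOC_Os09g26390 at 0.95. LOC_Os09g25760 had 72.6, 77.8 and 83.8 FPKM in OEZ, against 75.1, 74.7 and 56.2 FPKM in ZH17, a log2 fold change of 0.20 (SE 0.12), and was followed by LOC_Os09g25770 at 1.42. In these 3 genes the genotypes overlapped. LOC_Os09g26200 also overlapped, at 0.36 (SE 0.15). LOC_Os09g27010 had 29.0, 35.4 and 35.8 FPKM in OEZ, against 25.7, 24.4 and 23.3 FPKM in ZH17, a log2 fold change of 0.44 (SE 0.09). LOC_Os09g26960, the third most abundant member, had 221, 256 and 268 FPKM in OEZ, against 185, 175 and 154 FPKM in ZH17, a log2 fold change of 0.54 (SE 0.10). These last genes did not overlap but stood under the 1.5-fold minimum, between members above 1 on the log2 scale. None of these 6 genes has a description in the study's list, which its fold minimum would leave out.

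**Figure D4:**
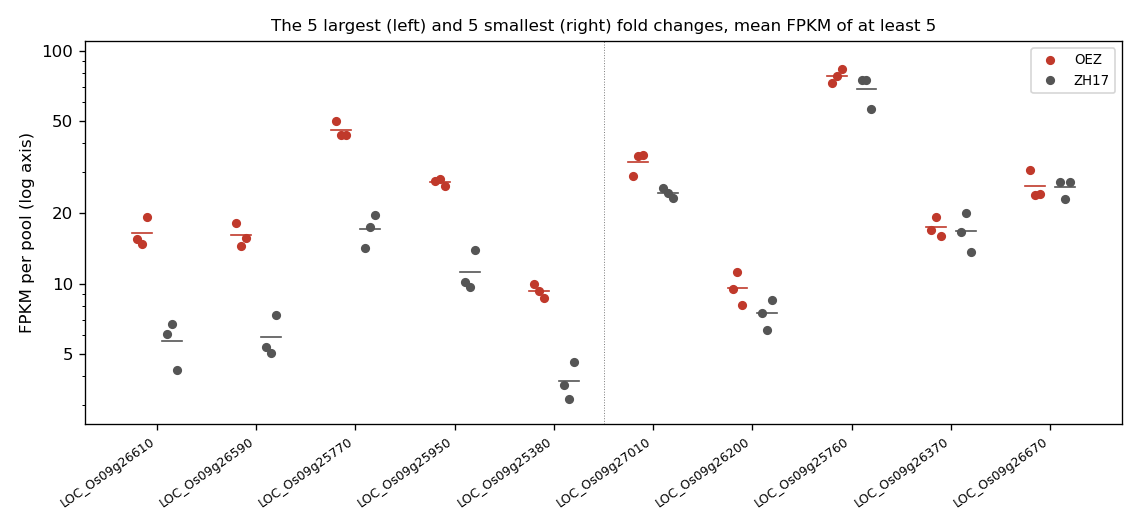
FPKM per pool (vertical, log axis) of the 5 members with the largest and the 5 with the smallest log2 fold change among those with a mean of 5 FPKM or more, with OEZ in red, ZH17 in grey and a short line at each mean of 3 pools. The genotypes stand apart in the left 5 genes, and LOC_Os09g26200, LOC_Os09g25760, LOC_Os09g26370 and LOC_Os09g26670 overlap on the right.

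In all, 8 members overlapped between the genotypes, 4 at a mean of 5 FPKM or more, given above, and 4 under it. LOC_Os09g25710 had 1.91, 2.48 and 4.21 FPKM in OEZ, against 1.93, 0.00 and 1.40 FPKM in ZH17. LOC_Os09g25784 had 0.81, 0.97 and 0.49 FPKM in OEZ, against 0.00, 0.32 and 0.63 FPKM in ZH17. LOC_Os09g26490 and LOC_Os09g26530 had log2 fold changes of 0.45 (SE 0.30) and 0.40 (SE 0.27). The large values of low members were uncertain: LOC_Os09g26910, with the largest log2 fold change of the stretch at 3.16 (SE 0.97), had 1.14, 3.24 and 1.83 FPKM in OEZ and was listed at 0 in ZH17 replicates 1 and 2, with 1.03 FPKM in replicate 3. A value of 0 may also be an estimate that failed.

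At the minimum of 0.5 FPKM, the member just inside was LOC_Os09g26290, with 1.01, 0.66 and 0.58 FPKM in OEZ, against 0.26, 0.24 and 0.29 FPKM in ZH17. The locus just outside, LOC_Os09g25650, had 0.29, 0.43 and 0.53 FPKM in OEZ, against 0.49, 0.46 and 0.58 FPKM in ZH17. Of the 111 loci under the minimum, 75 were listed at 0 in all 6 samples. Of the 36 others, 23 (63.9%) had the higher mean in OEZ, against 46.6% of the 7748 loci under the minimum elsewhere in the genome that were above 0 in some sample. In 8 of the 36 (22.2%) every OEZ sample lay above every ZH17 sample, against 4.16% of those 7748 loci and 16.0% of all tested loci. The stretch was chosen on this contrast, so nothing is read from these shares. Together the loci under the minimum summed to 6.81, 6.19 and 6.51 FPKM in OEZ, against 4.58, 5.67 and 3.78 FPKM in ZH17.

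The 7 loci left out by name lie inside the stretch, and 6 of them were higher in OEZ. CESA9 (LOC_Os09g25490), a cellulose synthase, averaged 104 FPKM in OEZ and 49.3 FPKM in ZH17, and the aldehyde dehydrogenase OsALDH7 (LOC_Os09g26880) 132 FPKM in OEZ and 69.5 FPKM in ZH17. Their log2 fold changes of 1.07 and 0.93 were those of the typical member. A ferric reductase gene, LOC_Os09g26660, had 0.92, a chlorophyll a/b binding protein gene, LOC_Os09g26810, 0.67, and WRKY62 (LOC_Os09g25070) 0.76, which was not called. The zinc finger gene LOC_Os09g26780 averaged 311 FPKM in OEZ and 83.6 FPKM in ZH17, a log2 fold change of 1.89, above every member with a mean of 5 FPKM or more. WRKY76 (LOC_Os09g25060) went the other way, with 3.29, 3.88 and 4.61 FPKM in OEZ, against 7.65, 5.45 and 6.62 FPKM in ZH17, a log2 fold change of -0.73. So the single sign over the 105 members depends on the choice to leave this locus out. It also depends on the minimum of 0.5 FPKM, under which some loci, such as LOC_Os09g25650, had the lower mean in OEZ.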

How the data were processed

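RNA-seq of 3 OEZ and 3 ZH17 pools was analysed, grouped by the sample labels. The authors aligned paired-end reads with TopHat2 to the Nipponbare genome (build IRGSP-1.0, MSU annotation) and computed FPKM per locus with Cuffdiff; their versions and the scaling between libraries are not given in the sources used here. The deposited files hold 1 FPKM value per locus and library, not counts, so the depth is unknown and the Cuffdiff test, which needs reads, was not repeated.

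Loci averaging 0.5 FPKM or more were kept, and log2(FPKM + 0.1) was fitted in limma 3.58.1 (R 4.3.3) with a variance trend and Benjamini-Hochberg adjustment over 22841 loci. The added 0.1 pulls the fold changes of low genes towards 0. In the 3 members listed at 0 in some sample, the fitted log2 fold change was still larger than the log2 ratio of mean FPKM. Calls used the study's thresholds of 1.5-fold and 0.05. Correlations, exact permutation tests and summaries used Python 3.11.15, numpy 2.4.6, pandas 2.3.3 and scipy 1.17.1, and plots matplotlib 3.10.9. The limma step was tested on simulated data.

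The members, groups and pairs were chosen with earlier results of these data known. Genes named were the first and last member, the 5 largest and 5 smallest fold changes at a mean of at least 5 FPKM, the 5 most abundant, each pair with a shared description, the 3 most abundant of each group, the loci beside the stretch and at the 0.5 FPKM minimum, and the 7 loci left out. Others were named after their values were seen. Alternatives were other pseudocounts, filters, scalings and fold criteria, limma without the trend, ratios of mean FPKM, a replicate block and leaving out each pool. No sequence or coordinate was used.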

Additional observations from a re-analysis of the deposited data

How the results depend on the processing

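The number of members called was 77 of 105 as reported. It was 34 without a filter on low values, where 0.195% of all loci were called higher, and 36 with a minimum of 2-fold, where 0.766% were, and the cause of the first was not tested, while the second lies in the stricter minimum. It lay between 55 and 77 when each pool was left out in turn, with 0.722% to 1.91% of all tested loci called higher in the same fits, and between 68 and 79 under the other alternatives that tested all 105 members without a block, where up to 2.86% of tested loci were called higher. With the replicate number as a block it was 59, all among the 77, against 0.88% of all tested loci. The deviations of same-numbered samples correlated at 0.02, 0.03 and -0.06, so the numbers were not taken to pair the samples. The median log2 fold change of the members was 0.85 with a pseudocount of 1 and between 0.93 and 0.95 when each pool was left out. The number of members with every OEZ sample above every ZH17 sample lay between 97 and 99, and the number more than 2 standard errors from the median between 29 and 46, when each pool was left out. Leaving out a pool cannot lower the number of members without overlap. The share of all tested loci without overlap was not computed for these fits, so nothing is read from that number. Spearman's rho of the fold change with order was 0.12 among the 80 members averaging 5 FPKM or more, and between 0.0057 and 0.0913 without each pool. Its rho with level was 0.45 with a pseudocount of 1, 0.0036 with a pseudocount of 0.01, 0.0448 among these 80 members, 0.0039 for ratios of mean FPKM, and between 0.0166 and 0.1029 without each pool. The log2 fold change of OsLTPL159 lay between 4.17 and 4.22 without each pool. No result changed sign under the alternatives run. The unknown depth limits most what can be said of the 25 members under 5 FPKM, of which 7 were called.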
